A study of Mus musculus with 24 samples.

Results

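The sarcomere, the contractile unit of striated muscle, is held together by scaffold proteins at its Z-discs and M-bands, and the values of 10 genes that encode such proteins are described here: Ttn, Neb, Actn2, Actn3, Ldb3, Tcap, Myoz1, Myoz2, Myom1 and Myom2. The members were all probe sets annotated with one of these symbols on either of the 2 array designs of the study, called MA and MB in the labels. This gave 21 of 45137 probe sets (13 on MA and 8 on MB), for 10 of the 18193 genes that a probe set named alone. Probe sets were taken by symbol only, but the list of genes was chosen with earlier results of these data known.

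The cells were C2C12, a mouse myoblast line that can fuse into multinucleate myotubes. The 4 groups were DM with 5 mM glucose, DM with 25 mM glucose, GM with 5 mM glucose and GM with 25 mM glucose, with 3 cultures each, and the total RNA of each of the 12 cultures was labelled with biotin and hybridised to both designs. The labels give the media as abbreviations only, which in this line commonly stand for differentiation and growth medium, and the series states an interest in calorie restriction and the differentiation of myoblasts. All groups are the same single cell line with no further agent named, and the time in the medium is not given in the sources used here. Nothing says that the 3 samples of a group were started apart, so the spread behind every p-value may be technical.

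As background, the Z-disc is the plate in which thin actin filaments of neighbouring sarcomeres are anchored, and the M-band crosslinks the thick myosin filaments in the middle of the sarcomere. Alpha-actinins crosslink the thin filaments at the Z-disc, titin runs from the Z-disc to the M-band, nebulin lies along the thin filament, and myomesins tie myosin to titin at the M-band. Myoblasts hold few such structures and assemble them as they become myotubes, when many of these genes are switched on by myogenic transcription factors.

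The labelled cell type was checked on marker genes. The summed MA intensity of Myog, Ckm, Myh3, Acta1 and Mymk, which mark differentiated muscle, ran in DM from 16237 to 28038 with 5 mM glucose and from 19639 to 35249 with 25 mM, whereas in GM it ran from 77.6 to 133 with 5 mM and from 93.2 to 213 with 25 mM. Myod1, which marks the myoblast lineage, averaged 1094 to 1378 in the 4 groups, and of the other lineage markers Des and Cdh15 were called higher in DM at both glucose levels and Pax7 and Myf5 at neither. The heart markers Myh6, Nppa, Tnni3 and Myl7 averaged 7.73 to 40.2 and did not pass the filter on dim probe sets. The heart marker Nkx2-5 passed it, with group means of 48.8 to 65.8, and was not called between the media. The blood cell and vessel markers Ptprc, Pecam1, Cdh5 and Hba-a1 averaged 6.41 to 37.2 and did not pass. Cd14, known from monocytes, averaged 46.6 in DM at 5 mM and 34.0 in DM at 25 mM, with GM means of 117 at 5 mM and 132 at 25 mM. It was called lower in DM, by -1.05 at 5 mM (limma adjusted p = 0.00273) and -1.51 at 25 mM (adjusted p = 0.000130), and its part in the results was not tested. Of the 3 smooth muscle markers Acta2, also known from C2C12 cells, was higher in DM by log2 1.32 at 5 mM and 1.35 at 25 mM, the call at 5 mM being lost without culture 3 of DM or culture 1 of GM at that level, and Cnn1 and Myh11 did not pass the filter. The adipocyte markers Fabp4 and Adipoq averaged 1.56 to 49.0, and of the 3 osteoblast markers Sp7 was tested and not called between the media. A control probe set for 18S ribosomal RNA on MA read 23.0 to 48.1 in 4 cultures, here called low-18S (culture 2 of DM at 5 mM, culture 3 of DM at 25 mM and cultures 1 and 2 of GM at 5 mM), and 279 to 1267 in the other 8. In DM each glucose level had 1 low-18S culture, whereas in GM 5 mM had 2 and 25 mM had 0. The log2 ratio of 3′ to 5′ Gapdh control intensity on MB, a sign of RNA quality, was -0.36 to -0.24 in the low-18S cultures and -0.08 to 0.15 in the others. On MA the gap was narrower, with -0.27 to -0.07 in the low-18S cultures and -0.03 to 0.22 in the others. The part of this ratio in the results was not tested.

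Levels of most members differed between the media more than between the glucose levels. At 5 mM glucose 8 of the 10 genes, each represented by its brightest tested MA probe set or, for Neb, its MB probe set, were higher in DM than in GM, and at 25 mM glucose 9 of 10 were. Of all 27081 tested probe sets 7.52% passed the test upwards at 5 mM and 9.83% at 25 mM, shares over probe sets and not over genes. The counts of genes are a description and cannot serve as support. The probe sets used for Ttn, Neb, Actn2, Ldb3, Myoz2, Myom1 and Myom2 passed the filter on dim probe sets through their DM arrays. Myoz1 was the gene that passed the test at neither glucose level and Tcap the one that passed only at 25 mM. Differences are on the scale of log2(intensity + 20), which understates the change of dim probe sets, and a difference counts as called where limma's p, after Benjamini-Hochberg adjustment over all tested probe sets of the design, was under 0.05. In the text below, SE is the standard error of such a log2 difference. In these bulk samples, fewer cells of a type and less RNA per cell cannot be told apart.

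**Figure D1:**
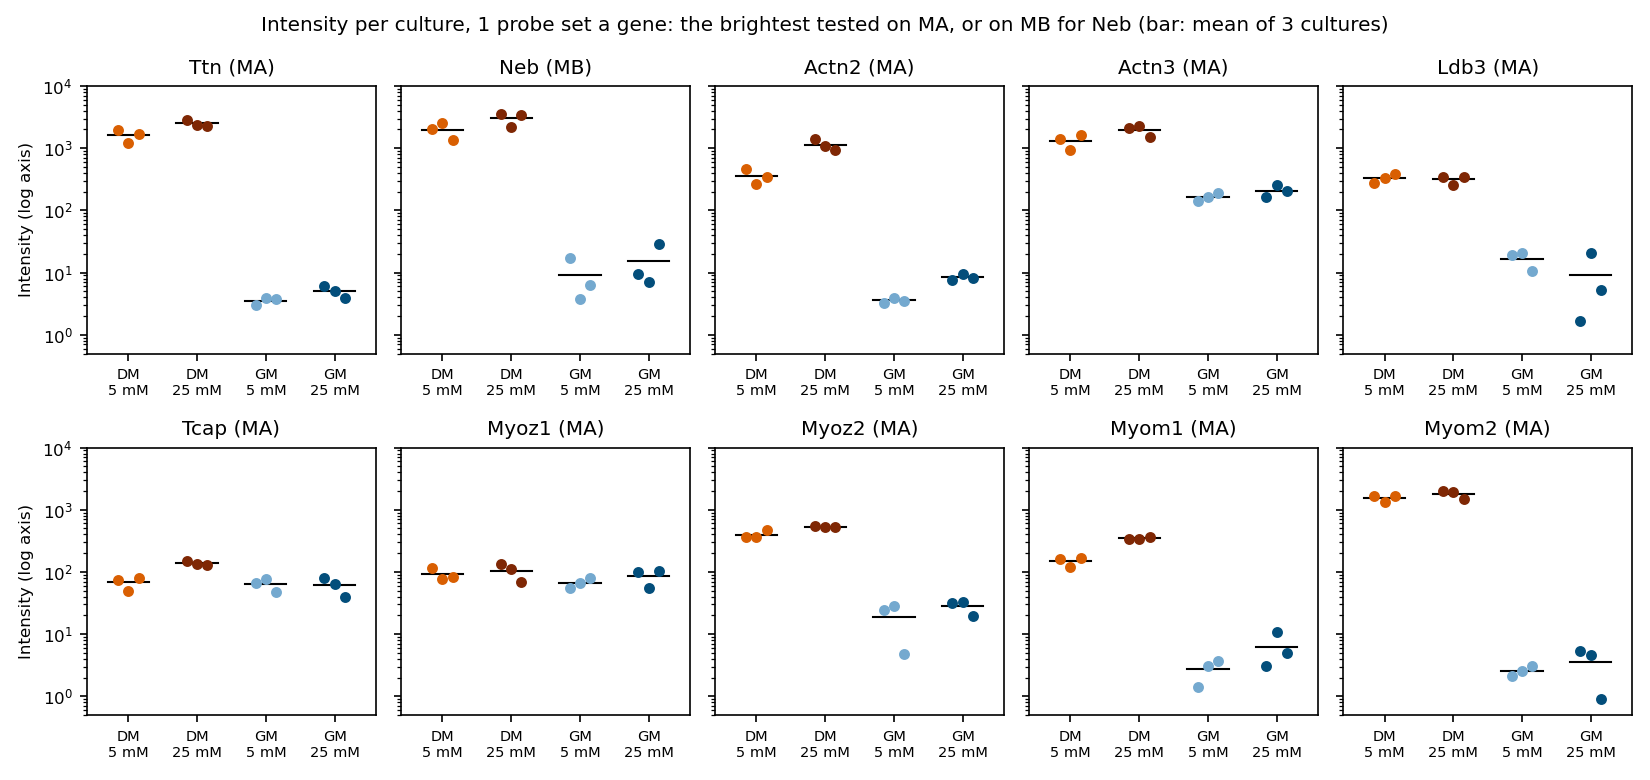
Intensity in each culture (points, logarithmic axis) of 1 probe set per gene, with the mean of 3 cultures as a bar, for DM at 5 mM, DM at 25 mM, GM at 5 mM and GM at 25 mM glucose. The DM points lie above all GM points for 8 genes, whereas for Myoz1 the media overlap and for Tcap they separate at 25 mM only.

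Ttn encodes titin, the giant elastic filament that reaches from the Z-disc to the M-band. Its probe set 1427446_s_at on MA read 1997, 1217 and 1698 in DM at 5 mM and 2874, 2383 and 2295 in DM at 25 mM. Its GM cultures read 3.02, 3.90 and 3.75 at 5 mM and 6.01, 5.02 and 3.92 at 25 mM. Every DM culture lay far above every GM culture, with a log2 difference of 6.11 at 5 mM (SE 0.17, limma adjusted p = 6.68e-12) and 6.66 at 25 mM (SE 0.17, adjusted p = 2.28e-12). Of the 6 Ttn probe sets 5 were called higher in DM at both glucose levels, with log2 differences of 2.22 to 6.11 at 5 mM and 2.97 to 6.66 at 25 mM. The sizes varied over the probe sets of this one gene. The GM cultures of 1444083_at and 1444638_at on MB read 86.6 to 233. The probe set 1446450_at on MB was not called, with 115, 132 and 203 in DM at 5 mM and 45.9, 145 and 173 in DM at 25 mM. The GM cultures gave 74.2, 16.3 and 178 at 5 mM and 83.9, 219 and 38.3 at 25 mM, and its groups overlapped.

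Neb encodes nebulin, which lies along the thin filament with its end in the Z-disc. Its single probe set, on MB, read 2070, 2508 and 1366 in DM at 5 mM and 3512, 2159 and 3414 in DM at 25 mM. GM cultures read 17.4, 3.83 and 6.29 at 5 mM and 9.67, 7.18 and 28.5 at 25 mM. The media did not overlap, and the log2 difference was 6.08 at 5 mM (SE 0.32, adjusted p = 2.33e-10) and 6.46 at 25 mM (SE 0.32, adjusted p = 9.47e-11).

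Actn2 and Actn3 encode the alpha-actinins of muscle, of which the Actn3 product is restricted to fast fibres in adult muscle. Actn2 read 462, 263 and 348 in DM at 5 mM and 1408, 1088 and 932 in DM at 25 mM. Its GM cultures read 3.28, 3.95 and 3.49 at 5 mM and 7.65, 9.39 and 8.08 at 25 mM. It was low in all GM cultures, and its log2 difference between DM and GM was 3.97 at 5 mM (SE 0.20, adjusted p = 2.38e-09) and 5.34 at 25 mM (SE 0.20, adjusted p = 1.11e-10). Actn3 read 1403, 941 and 1620 in DM at 5 mM and 2131, 2286 and 1493 in DM at 25 mM. The GM cultures gave 144, 163 and 192 at 5 mM and 163, 254 and 205 at 25 mM. The media did not overlap for Actn3 either, and its log2 difference was 2.82 at 5 mM (SE 0.21, adjusted p = 1.54e-07) and 3.12 at 25 mM (SE 0.21, adjusted p = 5.04e-08).

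Ldb3 encodes a PDZ and LIM domain protein, also called Cypher or ZASP, that binds alpha-actinin at the Z-disc. Its 3 probe sets, all on MA, were called higher in DM at both glucose levels. The probe set 1433783_at read 273, 334 and 378 in DM at 5 mM and 348, 259 and 347 in DM at 25 mM. GM cultures read 19.1, 20.6 and 10.7 at 5 mM and 1.70, 20.5 and 5.30 at 25 mM. That is a log2 difference of 3.24 at 5 mM (SE 0.24, adjusted p = 1.06e-07) and 3.58 at 25 mM (SE 0.24, adjusted p = 3.76e-08). The probe set 1451999_at moved least, by 1.59 at 5 mM (SE 0.23) and 1.01 at 25 mM (SE 0.23), with 115, 176 and 140 in DM at 5 mM and 148, 110 and 137 in DM at 25 mM. Its GM cultures read 20.4, 36.2 and 48.4 at 5 mM and 57.3, 67.3 and 42.1 at 25 mM.

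Tcap encodes telethonin, which caps the end of titin in the Z-disc. It read 74.4, 48.6 and 79.7 in DM at 5 mM and 149, 133 and 131 in DM at 25 mM. The GM cultures gave 65.7, 76.9 and 48.2 at 5 mM and 79.2, 63.9 and 39.3 at 25 mM. Only the DM cultures at 25 mM stood above the rest. The log2 difference between DM and GM was 0.06 at 5 mM (SE 0.22, adjusted p = 0.876, 95% interval -0.42 to 0.54) and 0.99 at 25 mM (SE 0.22, adjusted p = 0.00323). With the 60th percentile as the filter on dim probe sets Tcap was not tested.

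Myoz1 and Myoz2 encode calsarcins, which bind alpha-actinin and the phosphatase calcineurin, Myoz2 being known from slow and heart muscle and Myoz1 from fast muscle. Myoz2 read 368, 359 and 469 in DM at 5 mM and 545, 532 and 532 in DM at 25 mM. GM cultures read 24.3, 28.2 and 4.76 at 5 mM and 31.6, 33.3 and 19.2 at 25 mM. Its media did not overlap, with log2 differences of 3.47 at 5 mM (SE 0.23, adjusted p = 3.77e-08) and 3.55 at 25 mM (SE 0.23, adjusted p = 2.83e-08). Myoz1 read 116, 77.0 and 82.7 in DM at 5 mM and 134, 110 and 67.8 in DM at 25 mM. Its GM cultures read 54.5, 67.5 and 79.1 at 5 mM and 99.5, 55.1 and 103 at 25 mM. Its groups overlapped at both glucose levels, and the log2 difference was 0.36 at 5 mM (95% interval -0.18 to 0.89, adjusted p = 0.333) and 0.23 at 25 mM (-0.31 to 0.76, adjusted p = 0.510). The second Myoz1 probe set, 1448636_at, was the one member that did not pass the filter, with 1.37 to 6.97 in all 12 cultures.

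Myom1 and Myom2 encode myomesin and M-protein, which crosslink myosin at the M-band. Myom1 read 159, 122 and 169 in DM at 5 mM and 333, 343 and 363 in DM at 25 mM. The GM cultures gave 1.42, 3.10 and 3.64 at 5 mM and 3.08, 10.7 and 5.04 at 25 mM. Its log2 difference between the media was 2.89 at 5 mM (SE 0.19, adjusted p = 3.77e-08) and 3.81 at 25 mM (SE 0.19, adjusted p = 2.03e-09), and no culture of one medium reached the other. Myom2 on MA read 1686, 1326 and 1666 in DM at 5 mM and 2014, 1912 and 1493 in DM at 25 mM. GM cultures read 2.08, 2.53 and 3.10 at 5 mM and 5.32, 4.58 and 0.908 at 25 mM. Its log2 difference was 6.12 at 5 mM (SE 0.15, adjusted p = 6.68e-12) and 6.27 at 25 mM (SE 0.15, adjusted p = 2.28e-12).

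Of the 3 Myom2 probe sets on MB, 1457435_x_at and 1438175_x_at were also called, with log2 differences of 6.79 and 5.99 at 5 mM and 7.56 and 7.19 at 25 mM. Their names end in _x_at, which marks probes that can also match other transcripts. The probe set 1438372_at on MB was not called, with a log2 difference of 0.45 at each glucose level (SE 0.63) and overlapping groups.

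Over probe sets, 16 of the 20 tested members were called higher and 0 lower in DM at 5 mM, where 17.6% of all 27081 tested probe sets were called, 7.52% higher and 10.1% lower. At 25 mM 17 were called higher and 0 lower, where 21.3% of all were called, 9.83% higher and 11.5% lower. All called members had 3 DM cultures above the 3 GM cultures of the same glucose level, a separation seen in 13.6% of all tested probe sets at 5 mM and 15.4% at 25 mM. These counts describe the probe sets and cannot serve as support, because 12 of the 20 had a mean over the 6 GM arrays under the filter's threshold, an intensity of 35.5 on MA and 63.7 on MB, and so passed through their DM arrays. The median log2 difference over the tested members was 3.07 at 5 mM and 3.65 at 25 mM, against -0.03 and -0.09 over all tested probe sets. The 4 tested probe sets not called at 5 mM were the Myoz1 probe set 1460202_at, the Ttn probe set 1446450_at, the Myom2 probe set 1438372_at and that of Tcap, and of these Tcap was called at 25 mM.

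**Figure D2:**
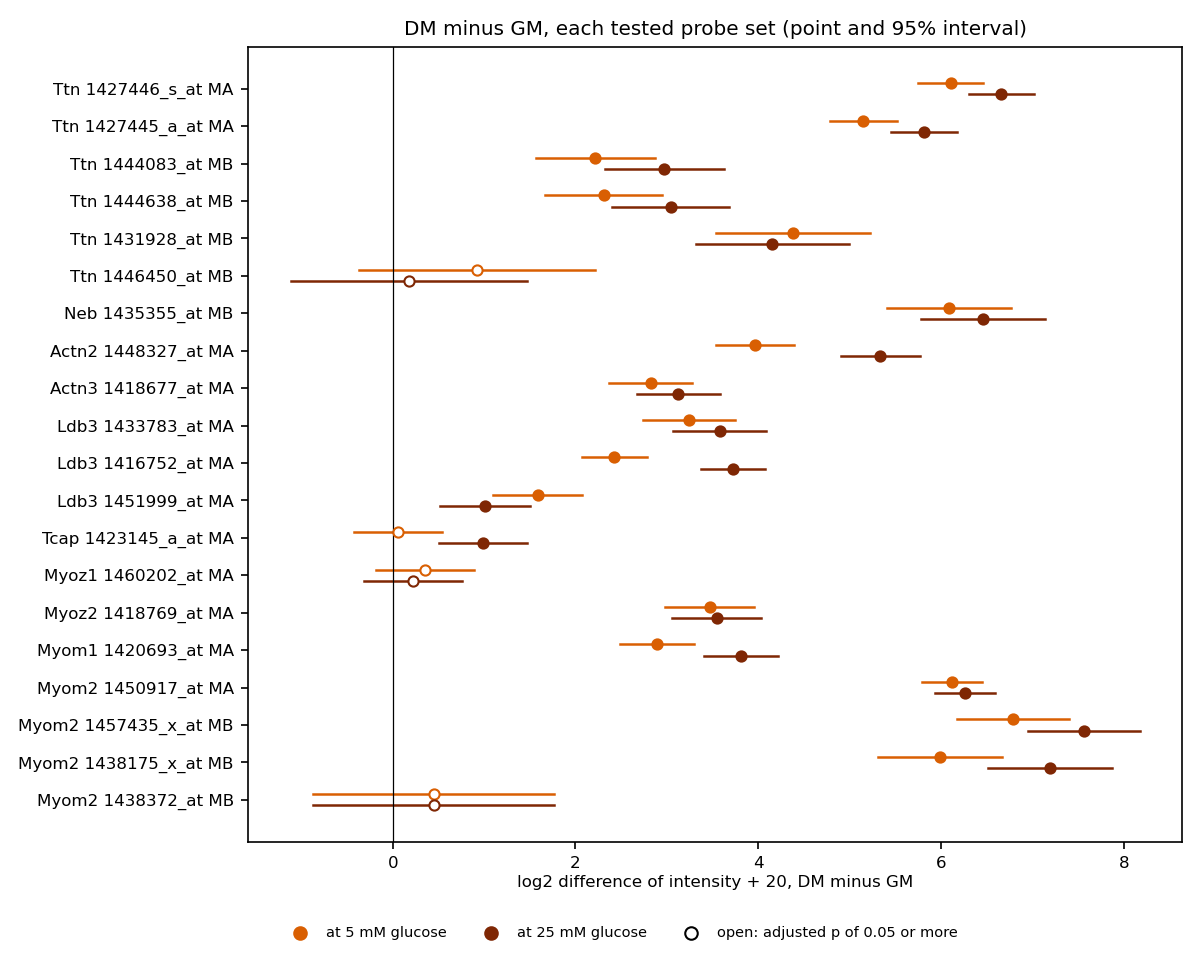
Log2 difference of intensity + 20, DM minus GM, for each of the 20 tested probe sets, at 5 mM and at 25 mM glucose, with 95% intervals as lines and filled points where the limma adjusted p was under 0.05. The filled points lie between 0.99 and 7.56, and the intervals of 1 Ttn, 1 Myom2 and 1 Myoz1 probe set span 0 at both glucose levels.

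In DM, the lower glucose concentration went with lower Actn2 and Myom1. Actn2 averaged 357 ± 99.7 in DM at 5 mM and 1143 ± 243 in DM at 25 mM (SD, n = 3 each), and its highest culture at 5 mM, with 462, lay below its lowest at 25 mM, with 932. The log2 difference of 5 mM minus 25 mM was -1.64 (SE 0.20, limma adjusted p = 0.000521, 95% interval -2.06 to -1.21). Myom1 averaged 150 ± 24.8 in DM at 5 mM and 346 ± 15.04 in DM at 25 mM (SD, n = 3 each), again with no overlap, and fell by 1.12 on the log2 scale (SE 0.19, adjusted p = 0.00624). With a pseudocount of 1 in place of 20 the Myom1 value was not called (adjusted p = 0.268). A fit on the 8 high-18S cultures alone gave Myom1 -0.96, also not called (adjusted p = 0.117). The same fit gave Actn2 -1.58 (adjusted p = 0.00282), and its low-18S cultures read 263 at 5 mM and 932 at 25 mM.

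Probe sets called lower at 5 mM in DM were thus 2 of the 20 tested members and 0 were called higher, where 0.864% of all tested probe sets were called, 0.547% lower and 0.318% higher. Among the members, 17 of 20 log2 differences lay below 0 and the median was -0.59, against 0.01 over all tested probe sets. In 7 members the 3 cultures at 5 mM all lay below the 3 at 25 mM, and in 0 all above, where 6.04% of all tested probe sets showed such a separation downwards and 6.09% upwards. These counts and the median are a description and cannot serve as support. The genes were chosen with earlier results of these data known, and 12 of the 20 probe sets passed the filter through their DM arrays. Several of the probe sets also share a gene, so they are not independent.

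The other members had smaller or less certain glucose differences in DM. Tcap, whose 3 cultures at 5 mM lay below the 3 at 25 mM, had a log2 difference of -0.86 (SE 0.22, adjusted p = 0.0839). The Ldb3 probe set 1416752_at read 227, 212 and 211 in DM at 5 mM and 394, 352 and 338 in DM at 25 mM, a difference of -0.69 (SE 0.17, adjusted p = 0.0566) without overlap. Ttn 1427446_s_at had -0.64 (SE 0.17, adjusted p = 0.0845), Neb -0.62 (SE 0.32, adjusted p = 0.905) and Actn3 -0.58 (SE 0.21, adjusted p = 0.286). With the 18S level (low or high) as a block, Tcap, this Ldb3 probe set, this Ttn probe set and Actn3 were called as well, which made 6 called members. Calls over all tested probe sets rose too, from 0.864% in the main fit to 2.26% with this block.

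For Myoz2 the difference was -0.42 (95% interval -0.91 to 0.07, adjusted p = 0.589), although its cultures at 5 mM lay below those at 25 mM. The MA probe set of Myom2 had -0.21 (95% interval -0.53 to 0.12, adjusted p = 0.770) and Myoz1 had -0.13 (-0.66 to 0.41, adjusted p = 0.939), with overlapping cultures in both. The M-band genes Myom1 and Myom2 and the actinin genes Actn2 and Actn3 thus each hold one gene called and one not called, and the difference between the genes of a pair was not tested.

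**Figure D3:**
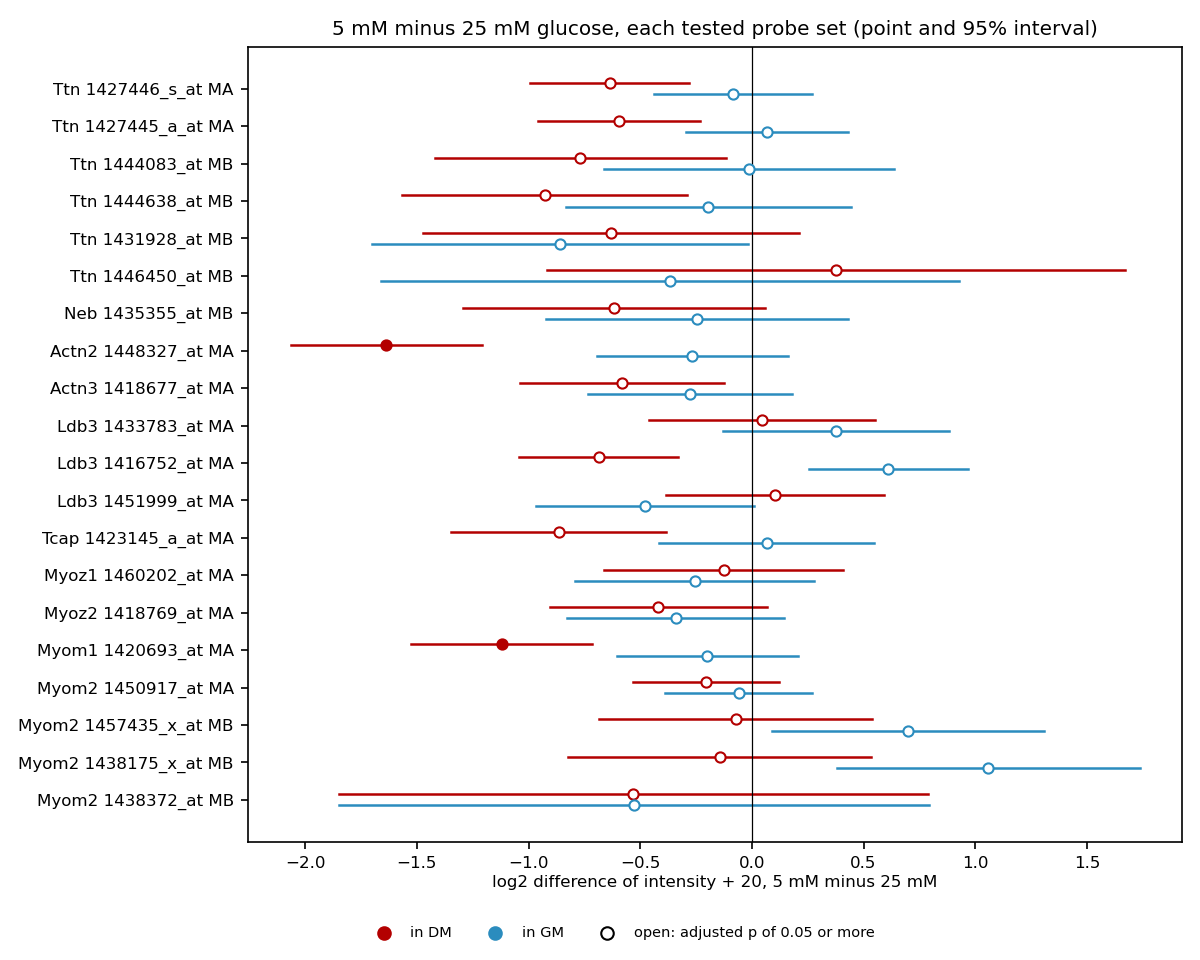
Log2 difference of intensity + 20, 5 mM minus 25 mM glucose, for each tested probe set in DM and in GM, with 95% intervals as lines and filled points where the limma adjusted p was under 0.05. Actn2 at -1.64 and Myom1 at -1.12 in DM are the filled points, and no point in GM is filled.

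The differentiation markers were not called in this comparison. Myog, a transcription factor of muscle differentiation, differed by 0.01 between 5 mM and 25 mM in DM (adjusted p = 0.995), Mymk, a muscle fusogen, by -0.05, Acta1 by -0.32, Myh3 by -0.52 and Ckm by -0.62, with 0 of the 5 called. Markers of proliferation differed between the glucose levels in DM, but not in the same direction. Mki67 averaged 138 ± 9.40 at 5 mM and 278 ± 21.7 at 25 mM (log2 difference -0.92, adjusted p = 0.00148). Top2a was also lower at 5 mM, by -0.62 (adjusted p = 0.0214), whereas Ccnd1 was higher there, by 1.03 (adjusted p = 0.0121). The Top2a call was lost under 7 of 22 alternatives (-0.73 to -0.53 over all of them), namely in the high-18S cultures only, with the replicate block, with only the arrays compared, and without culture 1 or 2 of either DM group. The Ccnd1 call was lost under 2 of 22, with only the arrays compared and without culture 3 of DM at 5 mM (0.83 to 1.16 over all). Their part in the values of Actn2 and Myom1 was not tested.

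In GM 0 of the 20 tested members were called between 5 mM and 25 mM by limma, where 0.00369% of all tested probe sets were called, and 4 had an unadjusted p under 0.05, against 8.88% of all tested probe sets. The log2 differences ran from -0.86 to 1.06. Actn2 had -0.27 (SE 0.20, adjusted p = 0.596) and Myom1 -0.20 (SE 0.19, adjusted p = 0.667), at intensities of 10.7 or less in every GM culture. With a pseudocount of 1 in place of 20 the Actn2 difference in GM was -1.03 (limma adjusted p = 0.394). In 3 tested members the GM cultures at 5 mM all lay below those at 25 mM, namely Actn2 and the Ttn probe sets 1427446_s_at and 1431928_at, where 8.30% of all tested probe sets separated downwards. For Actn2 these were 3.28 to 3.95 at 5 mM and 7.65 to 9.39 at 25 mM, the same direction as in DM. In 1 member, the Ldb3 probe set 1416752_at, they all lay above, where 7.31% of all separated upwards. It read 26.1, 26.2 and 20.01 in GM at 5 mM, against 9.29, 12.7 and 4.997 in GM at 25 mM, the direction opposite to DM (log2 difference 0.61, SE 0.17, adjusted p = 0.404). The _x_at probe sets of Myom2 on MB had 0.70 (adjusted p = 0.671) and 1.06 (adjusted p = 0.624). Since 2 of the 3 cultures in GM at 5 mM and 0 of 3 at 25 mM were low-18S, this grouping and the glucose level cannot be fully told apart in GM. The cause of the grouping was not tested.

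**Figure D4:**
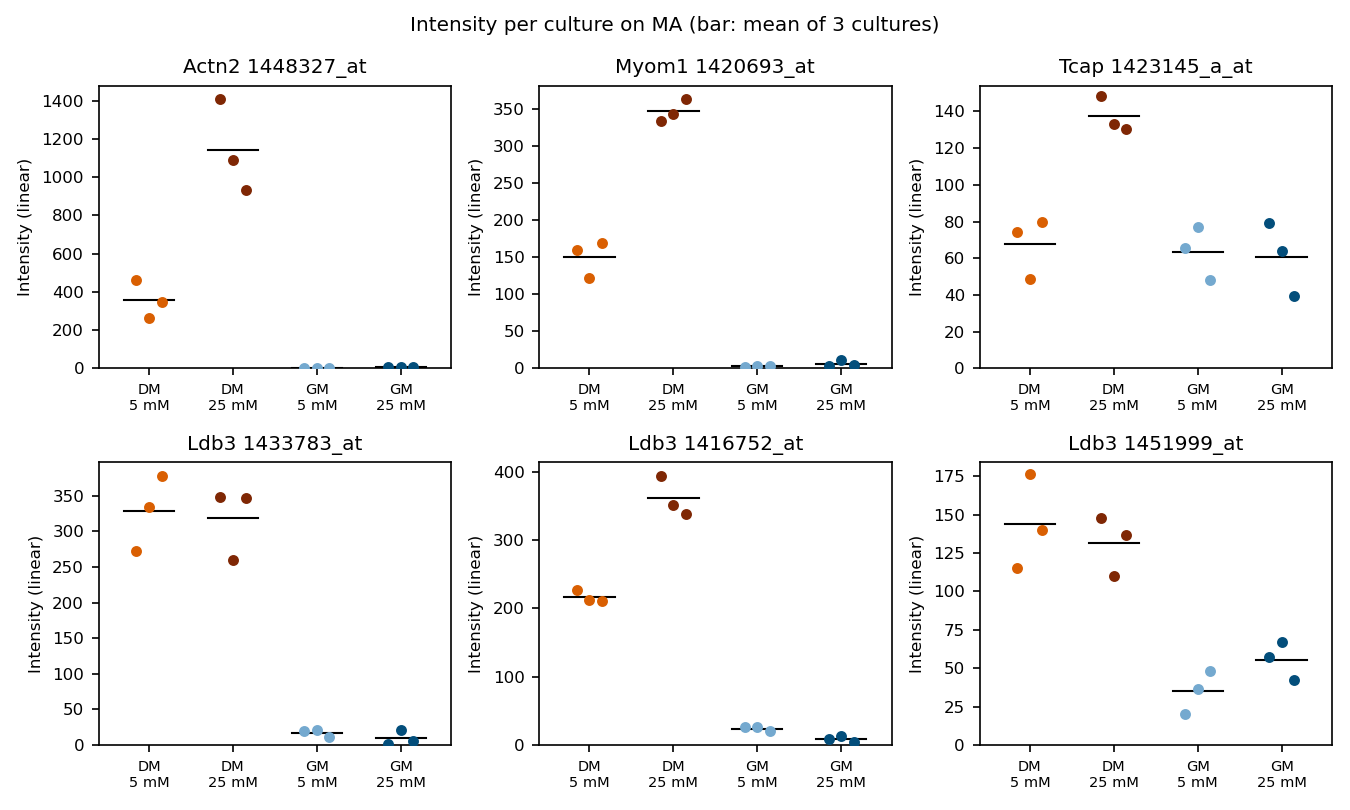
Intensity in each culture on MA (points, linear axis from 0) with the mean of 3 cultures as a bar, for Actn2, Myom1, Tcap and the 3 Ldb3 probe sets. Actn2, Myom1, Tcap and Ldb3 1416752_at have DM cultures at 5 mM below all DM cultures at 25 mM, and the other Ldb3 probe sets overlap.

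Whether the glucose difference itself depended on the medium was tested as the interaction, the difference in DM minus that in GM. It was called for Actn2, at -1.37 (SE 0.28, adjusted p = 0.0480), and for the Ldb3 probe set 1416752_at, at -1.30 (SE 0.23, adjusted p = 0.0240). These 2 of 20 members stand beside 0.284% of all tested probe sets called and 0.199% called in this direction. The count is a description and cannot serve as support, because these 2 probe sets passed the filter through their DM arrays. Their means over the GM arrays were 5.97 (Actn2) and 16.5 (Ldb3), below the pseudocount of 20. Myom1 had -0.92 (SE 0.27, adjusted p = 0.196) and Tcap -0.93 (SE 0.32, adjusted p = 0.278), neither called. With a pseudocount of 64 Myom1 was called as well, at -0.87 (adjusted p = 0.0278). Both calls were lost within the 8 high-18S cultures, where Actn2 had -1.31 and this Ldb3 probe set -1.19. In that fit GM at 5 mM is left with culture 3 alone, so the smaller groups and the 18S level cannot be told apart. The Actn2 value was -0.66 with a pseudocount of 1 (adjusted p = 0.508), and its call was lost without any 1 culture other than culture 1 of DM at 5 mM or culture 3 of DM at 25 mM (-1.40 to -1.18 in those fits). The Ldb3 call was lost without culture 1 or 3 of DM at 5 mM, 1 or 2 of DM at 25 mM, 1 or 2 of GM at 5 mM, or 1 of GM at 25 mM (-1.33 to -1.24). The other Ldb3 probe sets did not share the pattern: in DM, 1433783_at differed by 0.04 (95% interval -0.46 to 0.55) and 1451999_at by 0.10 (-0.38 to 0.59) between 5 mM and 25 mM, so that the glucose result of Ldb3 rests on 1 of its 3 probe sets.

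The promoters of Actn2 and Myom1, the genes called for glucose in DM, are shown beside those of Ttn and Myoz2. These were called for the medium and, in the main fit, not for glucose. The Ttn probe set 1427446_s_at was called for glucose in DM under 4 of 22 alternatives. The tables used here held a promoter for 5 of the 10 members, Ldb3 among them. The sequences are the 250 bases before the annotated start from RefSeq, build GRCm38.p6, on the gene's strand: Actn2 at chr13:12340733-12340982 (minus), Myom1 at chr17:71019307-71019556 (plus), Ttn at chr2:76982548-76982797 (minus) and Myoz2 at chr3:123034988-123035237 (minus). Capitals mark matches to the motifs described after them.
Actn2: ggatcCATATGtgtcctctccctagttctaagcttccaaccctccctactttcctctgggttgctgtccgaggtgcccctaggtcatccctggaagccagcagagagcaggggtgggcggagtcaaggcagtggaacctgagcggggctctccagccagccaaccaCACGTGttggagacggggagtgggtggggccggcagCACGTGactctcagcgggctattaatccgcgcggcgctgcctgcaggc
Myom1: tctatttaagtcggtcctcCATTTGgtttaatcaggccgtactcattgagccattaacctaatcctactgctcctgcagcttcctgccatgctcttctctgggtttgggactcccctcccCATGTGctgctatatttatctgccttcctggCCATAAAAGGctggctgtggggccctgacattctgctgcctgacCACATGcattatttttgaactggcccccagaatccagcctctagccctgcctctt
Ttn: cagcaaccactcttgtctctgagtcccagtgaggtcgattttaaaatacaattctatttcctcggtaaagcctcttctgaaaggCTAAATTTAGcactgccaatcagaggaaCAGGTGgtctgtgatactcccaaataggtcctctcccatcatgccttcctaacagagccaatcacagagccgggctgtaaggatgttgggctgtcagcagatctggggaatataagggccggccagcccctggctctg
Myoz2: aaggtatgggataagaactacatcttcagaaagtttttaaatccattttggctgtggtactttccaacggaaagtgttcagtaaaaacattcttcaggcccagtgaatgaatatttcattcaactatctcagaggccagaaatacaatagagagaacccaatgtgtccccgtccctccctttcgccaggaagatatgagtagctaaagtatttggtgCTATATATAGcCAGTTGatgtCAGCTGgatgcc

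The motifs searched on both strands were the E-box CANNTG, its forms CAGCTG and CACGTG, the MCAT element CATTCC, the MEF2 site and the CArG box of serum response factor. Myogenic factors of the MyoD family bind some forms of CANNTG, and a match to it does not tell which factor binds. CAGCTG and CACGTG are also counted as the general E-box, and CACGTG was added after its match in Actn2 had been seen. The Actn2 window held CATATG 245 bases before the start and CACGTG at 84 and 48 bases before it. The Myom1 window held CATTTG at 231 bases before the start, CATGTG at 130 bases, CACATG at 55 bases and a CArG box at 99 bases. The Ttn window held CAGGTG at 138 bases and a MEF2 site at 166 bases, and the Myoz2 window held CAGTTG at 22 bases, CAGCTG at 12 bases and a MEF2 site at 33 bases. The Ldb3 windows of the table overlap and share 1 CArG box, 35 bases before one start and 109 before the other, and CATTCC was in none of the members' windows. Of 32851 promoter windows of the same length, 66.2% held CANNTG, 13.0% CAGCTG, 6.02% CACGTG (0.429% held it at least 2 times), 12.6% CATTCC, 2.92% a MEF2 site and 1.47% a CArG box. A match describes the letters and is not a measured binding site.

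Other genes of the same structures were compared through lists of further Z-disc genes, of M-band and thick filament genes, of genes acting at the thin filament ends and of adhesion scaffold genes of non-muscle cells. Among all tested probe sets 7.52% were called higher and 10.1% lower in DM at 5 mM, and 9.83% and 11.5% at 25 mM. Some listed genes passed the filter only through their DM arrays, such as Ankrd2 with GM means of 3.70 at 5 mM and 8.70 at 25 mM. The counts below are thus a description and cannot serve as support. Of 22 tested further Z-disc genes (of 25 listed) 15 were higher and 1 lower in DM at 5 mM, and 18 higher and 1 lower at 25 mM, with median log2 differences of 1.79 and 2.01. The muscle ankyrin repeat genes Ankrd2 and Ankrd23 had 5.94 and 4.84 at 5 mM and 5.66 and 5.68 at 25 mM. Synpo2l, a synaptopodin-like actin binding protein, had 4.70 at 5 mM and 5.46 at 25 mM (SE 0.18). The gene called lower was Pdlim5, a PDZ and LIM domain protein, at -1.93 and -1.69 (SE 0.18 each).

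Of 13 tested M-band and thick filament genes (of 16) 8 were higher and 2 lower at 5 mM, and 10 higher and 1 lower at 25 mM. Mybph, a myosin binding protein, had log2 differences of 7.68 at 5 mM and 7.45 at 25 mM (SE 0.24), and Unc45b, a myosin chaperone, 5.94 and 6.43 (SE 0.28). Myom3, the third myomesin gene, had 4.56 at 5 mM and 4.17 at 25 mM (SE 0.47). The genes called lower were Sqstm1, an autophagy receptor, at both glucose levels (-0.51 and -0.58) and Fhl2, a LIM domain protein, at 5 mM (-0.69), the Fhl2 call being lost in the high-18S cultures only, with only the arrays compared, and without culture 1 of DM or culture 1 or 2 of GM at that glucose level.

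At the thin filament ends 7 of 10 tested genes (of 11) were higher and 1 lower at each glucose level. Lmod3, a leiomodin that nucleates actin filaments, had 6.37 at 5 mM and 6.18 at 25 mM (SE 0.44), and Klhl41, a partner of nebulin, 5.39 and 5.33 (SE 0.29). Capzb, a subunit of the actin capping protein, was the gene called lower (-0.38 and -0.31), a call lost under 7 of 22 alternatives at 5 mM and 13 of 22 at 25 mM. The adhesion scaffold genes had the opposite balance, with 2 of 12 tested genes (of 13) higher and 7 lower at each glucose level. Lasp1, a LIM and SH3 domain protein, had -1.26 at 5 mM and -1.76 at 25 mM (SE 0.14), and Tes, which encodes testin of focal adhesions, -1.51 and -1.65 (SE 0.17). Myh10, a non-muscle myosin heavy chain, had -1.78 at 5 mM and -1.05 at 25 mM (SE 0.19). Zyx, which encodes zyxin of focal adhesions, had -0.72 and -1.49 (SE 0.16), and Flna, the actin crosslinker filamin A, -1.14 and -1.28 (SE 0.11). Vasp, a promoter of actin filament growth, was called higher, at 0.89 and 1.40 (SE 0.14), and so was Vcl, at 0.58 and 0.51 (SE 0.12).

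Between 5 mM and 25 mM in DM, 4 of the 22 further Z-disc genes were called lower and 0 higher. Among all tested probe sets 0.547% were called lower and 0.318% higher. Smpx, a small muscle protein, averaged 229 ± 28.1 at 5 mM and 683 ± 101 at 25 mM (SD, n = 3 each), a log2 difference of -1.49 (SE 0.21, adjusted p = 0.00183), and the call was lost with a pseudocount of 1. Csrp3, the muscle LIM protein, averaged 292 ± 57.1 at 5 mM and 714 ± 59.5 at 25 mM, with -1.25 (SE 0.20, adjusted p = 0.00408). Capn3, a muscle calpain that binds titin, had -0.93 (adjusted p = 0.0195) and Palld, which encodes palladin, -0.59 (adjusted p = 0.0272). The calls of Capn3 and Palld were lost within the 8 high-18S cultures, with the replicate block, with only the arrays compared and, for Palld, without any 1 DM culture other than culture 1 at 25 mM, for Capn3 without culture 3 at 5 mM or any 1 at 25 mM (-1.11 to -0.68 for Capn3 and -0.73 to -0.47 for Palld). At the thin filament ends, Nrap, a nebulin-related anchoring protein, was called lower, with 168 ± 16.6 at 5 mM and 346 ± 62.5 at 25 mM (-0.95, SE 0.16, adjusted p = 0.00623). None of the 13 M-band and thick filament genes and none of the 12 adhesion scaffold genes was called in this comparison by limma.

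**Figure D5:**
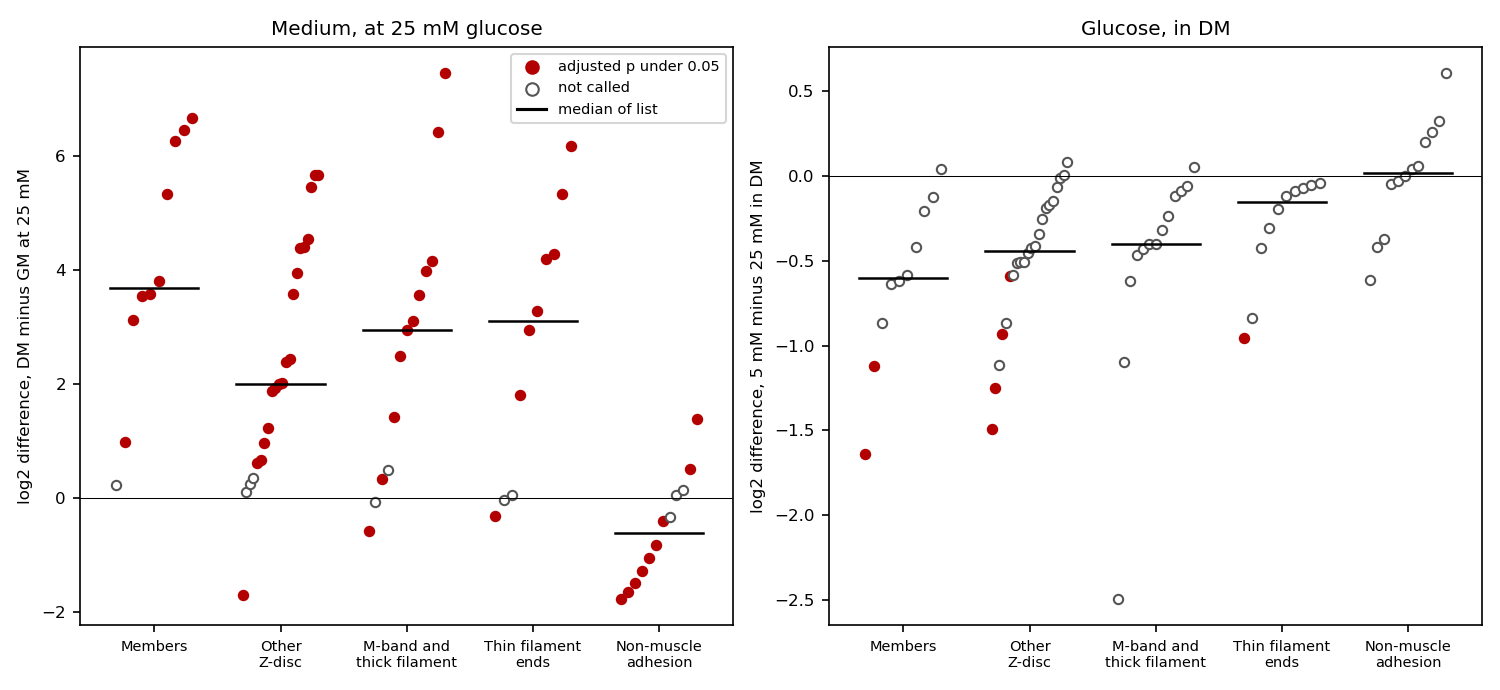
Log2 differences of single genes (points, filled where the limma adjusted p was under 0.05) with the median of each list as a bar, for the 10 members and 4 companion lists, for DM minus GM at 25 mM (left) and for 5 mM minus 25 mM in DM (right). The adhesion scaffold list has its median below 0 on the left, at -0.62, and near 0 on the right, at 0.02, whereas the medians of the muscle lists lie above 0 on the left and below 0 on the right.

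The genes most like each member were ranked by Pearson correlation of log2(intensity + 20) over the 12 cultures among 8108 other MA genes. The cultures fall into the 2 media, so that these correlations mostly record the difference between DM and GM, and they are given as a description. Closest to Ttn and to Myom2 was Tnnc2, a troponin C of fast muscle (r = 0.998 and 0.999). Closest to Actn3 was Pdlim7, a PDZ and LIM domain gene (0.998), to Actn2 Pgam2, the muscle phosphoglycerate mutase (0.996), to Myom1 Pde4dip (0.997), to Ldb3 Iffo1 (0.995) and to Myoz2 Casq2, a calcium store protein (0.989). The members without a large medium difference had looser partners, F2 for Myoz1 (0.920) and Fzd3 for Tcap (0.922).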

How the data were processed

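Total RNA of 12 C2C12 cultures was measured on 24 arrays, 12 of each of 2 designs. The values are intensities of probe sets on a linear scale as deposited, and how the authors made these intensities (software, scaling, background correction, any floor) is not given in the sources used here. Array medians ran from 48.7 to 61.2 (MA) and from 69.0 to 96.5 (MB). Means after trimming 2% at each end were about 150 on every array, so the arrays of a design share a scale and were kept as deposited. No detection calls were in the values, so that low readings may lie in the background, and the number of arrays limits the precision.

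The members and gene lists were chosen with earlier results of these data known. Control probe sets (64 a design) were left out, and 13575 of 22690 probe sets on MA and 13506 of 22575 on MB with a mean over 12 arrays above the 40th percentile were tested. Each design was fitted separately on log2(intensity + 20) in limma 3.58.1 (R 4.3.3) with 4 group means and eBayes with a trend (8 residual degrees of freedom, prior 6.18 on MA and 10.4 on MB). Tests were two-sided and p-values were adjusted by Benjamini-Hochberg within a design over all tested probe sets. The 5 comparisons were DM against GM at each glucose level, 5 mM against 25 mM in each medium, and their interaction. Probe sets were named by the platform annotation, with 1 gene for 20380, several for 691 and none for 1555 on MA, and 14661, 245 and 7605 on MB; no member probe set named several genes. Companion lists are given by counts, with up to 4 called genes of largest change as examples and any called against the list's direction. The alternatives were pseudocounts of 1 and 64, no filter or the 60th percentile, quantile normalization, median centring, the 18S level (low or high) as a block, the 8 high-18S cultures, the replicate number as a block, only the arrays compared, and each culture left out in turn.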

Additional observations from a re-analysis of the deposited data

Results flagged for a closer look

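On the scale of log2(intensity + 20), the Actn2 glucose differences in DM and in GM differed by a test of the difference itself. The interaction was -1.37 (SE 0.28, limma adjusted p = 0.0480), with -1.64 between 5 mM and 25 mM in DM and -0.27 in GM. The ratio of mean Actn2 intensity at 5 mM to that at 25 mM was 0.313 in DM and 0.427 in GM. With a pseudocount of 1 the Actn2 differences were -1.69 in DM and -1.03 in GM. The interaction of -0.66 was then not called (limma adjusted p = 0.508). With a pseudocount of 64 it was -1.43 (limma adjusted p = 0.0104). The Actn2 interaction thus depended on the pseudocount. For the Ldb3 probe set 1416752_at the interaction was -1.298 (SE 0.23, limma adjusted p = 0.0240), with -0.69 in DM and 0.61 in GM, while the Ldb3 probe sets 1433783_at and 1451999_at had interactions of -0.33 and 0.58 and were not called. The GM readings behind both flagged values were dim, 3.28 to 9.39 for Actn2 and 4.997 to 26.2 for the Ldb3 probe set 1416752_at. The interaction call was lost under 14 of 21 alternatives for Actn2 and under 9 of 21 for this Ldb3 probe set.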

How the results depend on the processing

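The medium calls were the most stable: 16 member probe sets were called at 5 mM under each of 22 alternatives, and 17 at 25 mM under 21 of them, with 16 under the 60th percentile filter, where Tcap was not tested; the counts without 1 culture were 16 and 17. Between 5 mM and 25 mM in DM, 2 members were called, against 1 with a pseudocount of 1, 4 with a pseudocount of 64, 4 with median centring, 6 with the 18S level as a block, 1 in the high-18S cultures only, and 2 to 3 without 1 culture. The cause of these moves was not tested. Actn2 was called under all 22 alternatives (-1.83 to -1.45, limma adjusted p = 3.73e-05 to 0.0128) and Myom1 under 20 of 22. In GM 0 members were called under any alternative. For the interaction, 2 members were called, against 3 with a pseudocount of 64, 1 with a pseudocount of 1, 1 with no filter, 0 in the high-18S cultures only, 0 with the replicate block and 0 to 2 without 1 culture. Over all probe sets the interaction had 77 calls, 31 with the replicate block, 17 in the high-18S cultures and 130 with the 18S block, glucose in DM had 234, 112 with only the arrays compared, 613 with the 18S block and as few as 129 without 1 culture, and the medium at 5 mM had 4777, against 2799 in the high-18S cultures. No pairing by replicate number was seen: of 18 same-numbered pairs 3 had a correlation of deviations over 0.1 (range -0.533 to 0.46), and 2 of 12 cultures correlated best with their own number. The low-18S culture 2 of DM at 5 mM and culture 3 of DM at 25 mM, of unlike number, correlated at 0.681. The 18S level may thus mask a pairing, and the check cannot exclude one. The replicate block left the counts of members called for the medium and for glucose in DM as they were. Median centring moved the median of all tested probe sets at 25 mM from -0.09 to 0.07 and the share called higher from 46.1% to 65.4% of calls, and the median interaction from 0.01 to -0.15.

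No called value of a member changed sign under these alternatives. Of the 20 tested members, uncalled values changed sign under at least 1 alternative in 10 for glucose in GM and in 6 for the interaction, none of them with its log2 difference printed in the report. For the medium and for glucose in DM, those that did are given with their range over the fits without 1 culture. For 5 mM against 25 mM in DM they were Ldb3 1433783_at (-0.08794 to 0.1635, and -0.003535 with median centring), Ldb3 1451999_at (-0.03675 to 0.2331, and -0.00923 in the high-18S cultures), Myom2 1438175_x_at (-0.4142 to 0.1775, and 0.08259 in the high-18S cultures), Myom2 1457435_x_at (-0.2355 to 0.05748), Myoz1 (-0.3559 to 0.05029) and Ttn 1446450_at (-0.1011 to 0.6724). For DM against GM at 25 mM they were Myom2 1438372_at (-0.1084 to 0.924), Myoz1 (-0.002654 to 0.4562) and Ttn 1446450_at (-0.3009 to 0.7176, and -0.1176 in the high-18S cultures). For DM against GM at 5 mM they were Tcap (-0.07661 to 0.2293) and Ttn 1446450_at, which had -0.1894 in the high-18S cultures. Of the called companion and marker genes 50 of 54 kept their call under every alternative at 5 mM, 52 of 58 at 25 mM and 3 of 8 for glucose in DM.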

Other observations

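Among the thick filament genes, Mybpc2, which encodes the fast myosin binding protein C, had the most negative log2 difference of that list between 5 mM and 25 mM in DM, at -2.49 (SE 0.55), without passing the test (limma adjusted p = 0.140); it was singled out after its values were seen. The Mybpc2 difference between DM and GM was 0.07 at 5 mM, not called, and 2.49 at 25 mM, a call lost within the 8 high-18S cultures and without culture 1 of DM at 25 mM.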
